A study of Trametes coccinea with 18 samples.

Results

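The genes described here are the 48 gene models of *Pycnoporus coccineus* CIRM-BRFM 310, a white-rot basidiomycete (Pycco 310), that were most abundant as transcripts on pine. They were chosen from 12690 gene models by the level of each gene, which is the mean over the 3 libraries of a carbon source of log2(1 + normalized count). The normalized count is the raw read count divided by a median-of-ratios size factor for the library. A gene was taken when its level on pine was at least 6 and at least 1.5 log2 above its level on each of the 5 other carbon sources, and 2 gene models were set aside by the rule. The gap between pine and the next highest carbon source is called the margin. Since the levels themselves chose the genes, the values on pine against the other sources are a description and were not tested.

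RNA was sequenced from mycelium of the single strain CIRM-BRFM 310 after 3 days of shaken culture at 30 °C in a mineral medium with yeast extract, with 3 independent cultures for each of 6 carbon sources (18 libraries). One group received maltose at 20 g/l as the carbon source. The 5 other groups received pine, aspen, wheat straw, Avicel (microcrystalline cellulose) or xylan-galactomannan at 15 g/l, and all of these also received maltose at 2.5 g/l. Pine stands for softwood, aspen for hardwood and wheat straw for grasses. Libraries held 26370228 to 42190522 counts, and the correlation of levels across genes between replicates was 0.955 to 0.989. The lowest of these belonged to xylan-galactomannan 2 and xylan-galactomannan 3. The description of xylan-galactomannan 3 names wheat straw while its title names xylan-galactomannan. Across genes its levels correlated at 0.976 with xylan-galactomannan 1, at 0.955 with xylan-galactomannan 2 and at 0.950 to 0.953 with the wheat straw libraries, whereas xylan-galactomannan 1 correlated with the wheat straw libraries at 0.912 to 0.921. It lay nearer to wheat straw than xylan-galactomannan 1 did, and these values do not settle its label. It was kept in the group of its title, and the counts and tested values on xylan-galactomannan are also given without it.

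Softwood differs from hardwood and grass in its lignin, which is built almost wholly of guaiacyl units, in its galactoglucomannan, and in its resin, a mixture of terpenes, resin acids and fatty acids. White-rot fungi degrade lignin and polysaccharides with secreted enzymes. Inside the cell they oxidise small aromatic and lipophilic compounds with cytochromes P450, flavin monooxygenases and reductases, and they move such compounds across membranes with transporters of the ABC and major facilitator families. Of the 48 genes, 13 carried a functional annotation in the gene lists that accompany the study, and the roles below follow these. The 33 genes found in no such list are given by identifier alone.

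The 48 genes had levels on pine from 7.48 to 18.56 (median 13.68), and 14 of them exceeded 15. Their median level was 11.00 on aspen, 10.67 on wheat straw, 10.22 on maltose, 9.82 on xylan-galactomannan and 9.65 on Avicel. The margin ran from 1.51 to 3.59 log2 (median 1.83), or 2.85-fold to 12.1-fold. In 46 of the 48 genes every pine library lay above all 15 other libraries; over the 9379 genes with a level of at least 6 on pine this held for 7.29%, and nothing is read from this because the same levels chose the genes. The exceptions were 1445359, where aspen 3 (8.70) exceeded pine 2 (8.43), and 1365831, where wheat straw 1 (7.21) exceeded pine 2 (6.77). The margin of 1445359 was 1.27 without aspen 1, and that of 1365831 was 1.09 without wheat straw 2. The genes together took 4.14 to 5.51% of all counts in the pine libraries and 0.514 to 1.37% in the others. In whole cultures, fewer cells that transcribe a gene and less RNA of it per cell cannot be told apart.

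**Figure D1:**
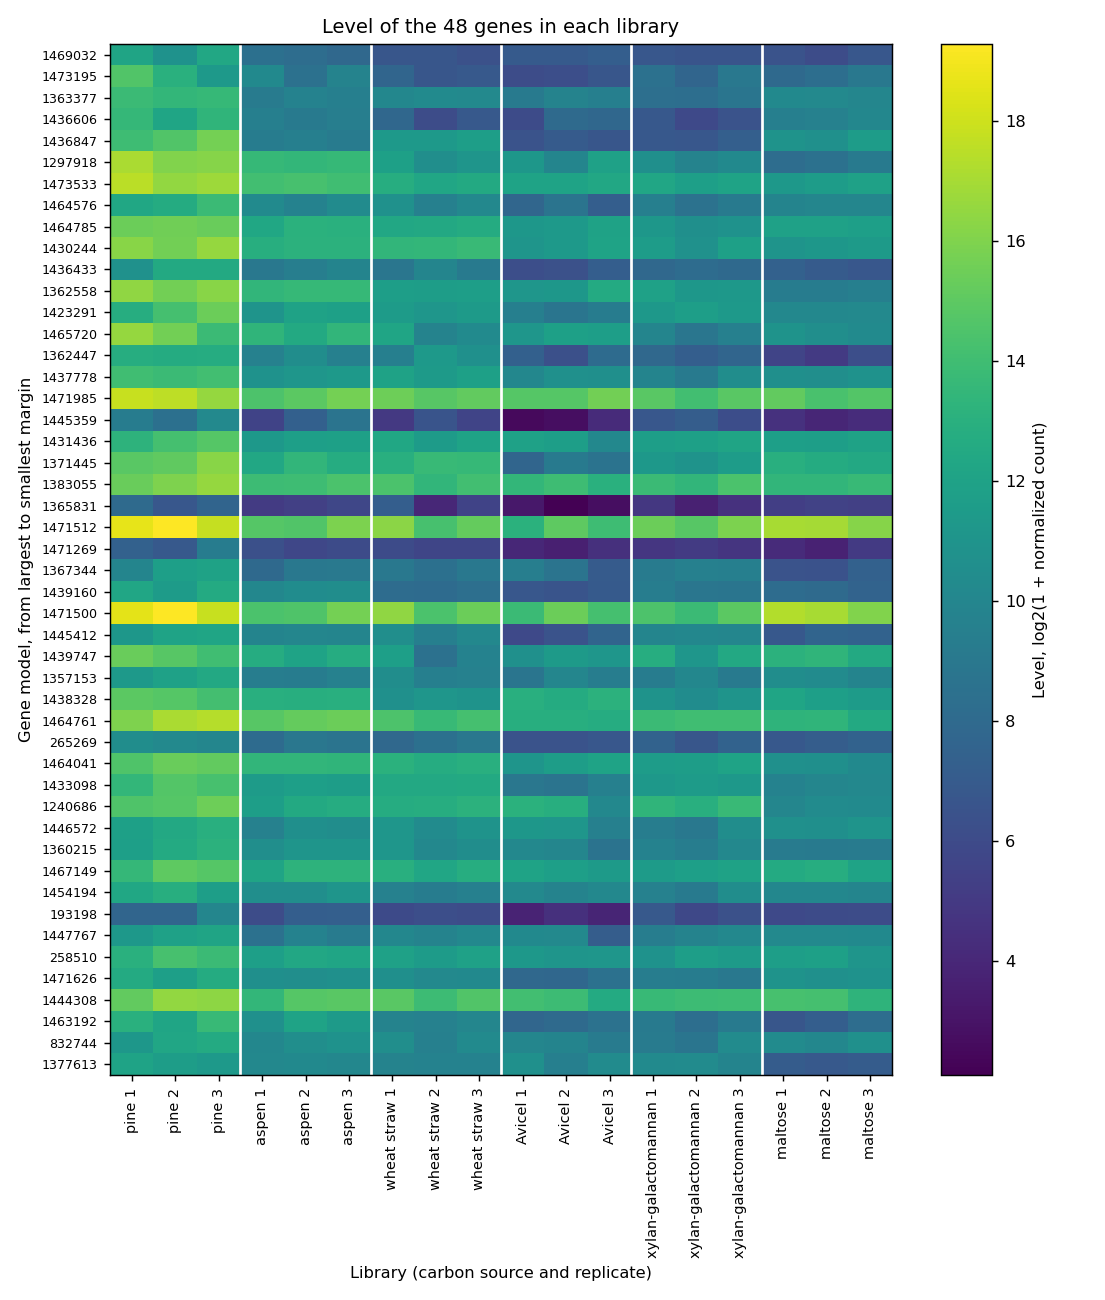
Heat map of the level, log2(1 + normalized count), of each of the 48 genes (vertical axis, from largest to smallest margin) in each of the 18 libraries (horizontal axis). The 3 pine libraries hold the highest values of every gene except 1445359 and 1365831, and levels on the other carbon sources differ from gene to gene.

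The heat map of levels by library shows that the genes had no single pattern outside pine. Aspen was the next highest carbon source for 23 genes and wheat straw for 14, so a plant substrate came next in 37 of 48. Maltose was next for 7 genes, xylan-galactomannan for 3 and Avicel for 1. The lowest level lay on Avicel for 23 genes, on maltose for 12 and on xylan-galactomannan for 10. Without xylan-galactomannan 3, the next highest sources were counted alike, and the lowest level lay on Avicel for 22 genes, on maltose for 11 and on xylan-galactomannan for 13. For 11 genes the 5 other carbon sources lay within 1.5 log2 of each other, and for 7 genes they were spread over more than 4 log2.

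The number of genes depended on the libraries used and on the scaling. Without pine 1, 103 genes met the rule, 45 of the 48 among them, and over the 18 runs that left out 1 library the number ran from 38 to 103. More of the 48 were lost without pine 3 (14), pine 2 (10) or aspen 1 (10) than without pine 1 (3). Of the 48 genes, 22 met the rule in all of these runs. The size factor per 1e6 counts was 0.0217 to 0.0241 in the pine libraries and 0.0274 to 0.0361 in the others. When library totals replaced the size factors, the median level over genes moved by -0.37 log2 on pine and by 0.24 on Avicel. With library totals, pine was still the highest source for all 48 genes, but their margins were 0.91 to 3.31 (median 1.39) and 18 genes met the rule, all of them among the 48. With TMM scaling, 46 of the 48 met it. The 3 genes just inside the limit were 1377613 with a margin of 1.51, 832744 with 1.52 and 1463192 with 1.53. The 3 just outside were 1433585 with 1.49, 696146 with 1.48 and 1361583 with 1.48, and their next highest sources were maltose, xylan-galactomannan and wheat straw.

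**Figure D2:**
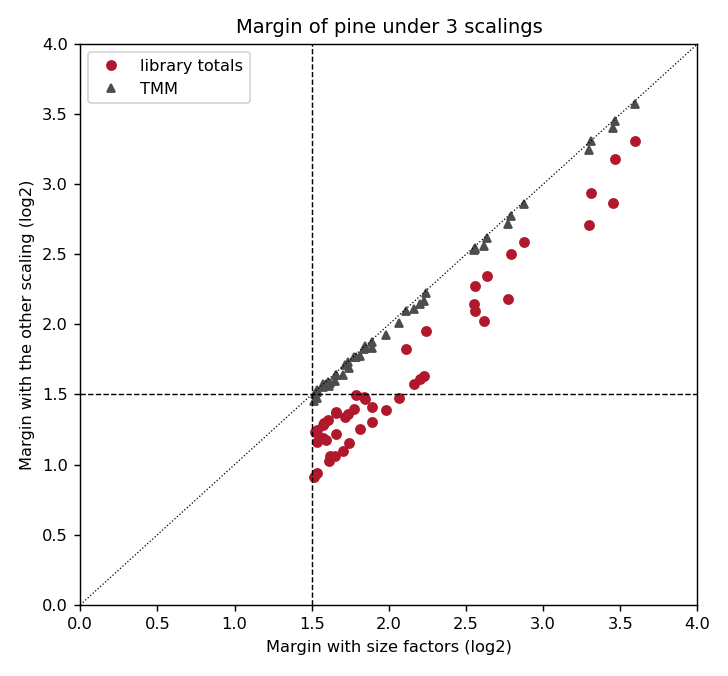
Margin of pine over the next highest carbon source (log2) of the 48 genes with size factors (horizontal axis) against the margin with library totals or with TMM (vertical axis). Dashed lines mark the limit of 1.5 and the dotted line equal margins; with library totals the points lie below the dotted line, and 18 of 48 stay above the limit.

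The plot of margins under the 3 scalings shows that every margin was smaller with library totals, and that the 10 largest stayed above the limit. The largest margin belonged to 1469032, annotated as a cytochrome P450 of the CYP4/CYP19/CYP26 type, enzymes that hydroxylate fatty acids and other lipophilic compounds. Its level was 12.15, 10.88 and 12.39 in pine 1 to 3, and 8.44, 8.27 and 7.94 on aspen. It was between 6.06 and 7.21 in all 12 libraries of the other 4 sources. The margin was 3.59, or 12.1-fold, and only aspen stood clearly above the rest. None of the 4 other genes with the same annotation in the study's lists met the rule. Of these, 1435960 had a margin of 0.49, while 1440117, 1369748 and 1362757 were higher on another source than on pine (margins -0.43, -0.86 and -2.28).

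Among the 10 largest margins were those of 2 transporters. The gene 1436847 was annotated as a pleiotropic drug resistance transporter of the ABC superfamily, a class of pumps that export lipophilic compounds. Its level was 13.98, 14.64 and 15.70 on pine, 11.34, 11.33 and 11.76 on wheat straw, and 10.92, 10.71 and 11.58 on maltose. On aspen it was 9.33, 9.51 and 9.28, and on Avicel and xylan-galactomannan it stayed between 6.51 and 7.32. The sources other than pine were thus spread over more than 4 log2, with aspen far below wheat straw and maltose. The gene 1436606 was annotated as a transporter of the major facilitator superfamily, proteins that carry small solutes along gradients. It had levels of 13.54, 12.23 and 13.35 on pine, 9.49, 9.63 and 10.08 on maltose, and 9.52, 9.17 and 9.44 on aspen. On wheat straw, Avicel and xylan-galactomannan its 9 libraries lay between 5.90 and 8.07. Both transporters thus had low levels on Avicel and xylan-galactomannan, while wheat straw was the next highest source for 1436847 and among the low ones for 1436606. Their margins were 3.30 and 3.31.

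The gene 1473195, annotated as a polycystin-related cation channel, had a margin of 3.47 but the widest pine libraries of the set. Its level was 14.62, 13.02 and 11.31 in pine 1 to 3, against 10.28, 8.48 and 9.80 on aspen, and the margin was 2.64 without pine 1 and 4.30 without pine 3. By contrast 1363377, annotated as a sterol or diacylglycerol O-acyltransferase, which esterifies lipids for storage, had pine libraries close together. Its level was 13.85, 13.51 and 13.60 on pine, and its 15 other libraries lay between 8.31 and 10.31. The margin of 3.45 was 2.86 with library totals.

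**Figure D3:**
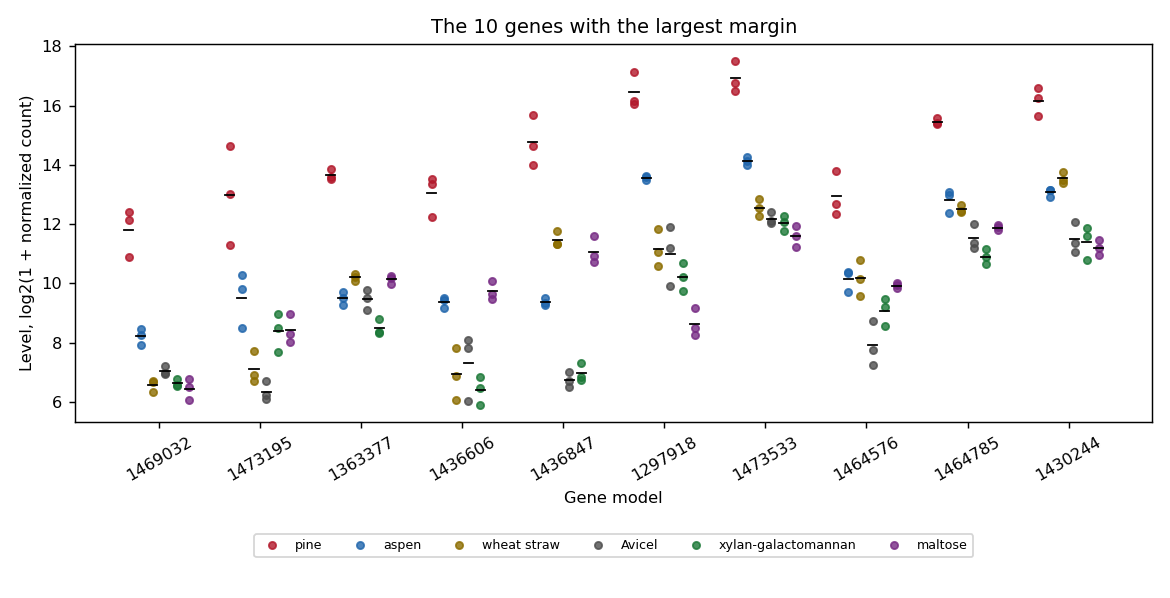
Level, log2(1 + normalized count), of the 10 genes with the largest margin (horizontal axis, by gene model) in each of the 18 libraries, coloured by carbon source. Points are single libraries; for 1469032 the pine libraries lie at 10.88 to 12.39 and the highest other library at 8.44.

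The plot of the 10 largest margins shows that every pine library of these genes stood above all others. The remaining 5 of the 10 had no annotation that names a function. The gene 1297918 had levels of 17.13, 16.05 and 16.16 on pine, 13.59, 13.51 and 13.62 on aspen, and 8.26, 8.49 and 9.16 on maltose, the widest span between sources among them. The gene 1473533 had 17.50, 16.48 and 16.77 on pine and 14.11, 14.27 and 13.99 on aspen. For 1464576 the pine levels were 12.34, 12.67 and 13.80 and the next source was wheat straw at 10.78, 9.56 and 10.15. Aspen followed pine in the first 2 of these genes, and aspen and wheat straw lay close together in 1464576. For 1464785 the pine levels were 15.40, 15.58 and 15.38, and for 1430244 they were 16.25, 15.64 and 16.60. In both, the aspen and wheat straw libraries lay between 12.37 and 13.76.

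Annotated genes with smaller margins included several oxidoreductases that act on small molecules. The gene 1439160, of the kynurenine 3-monooxygenase type of flavoprotein monooxygenases, had levels of 12.26, 11.51 and 12.64 on pine and 10.08, 10.45 and 10.51 on aspen, and 6.79, 6.59 and 6.96 on Avicel (margin 1.78). The gene 1463192, annotated as a flavin monooxygenase of the group that includes the hydroxylases of coenzyme Q synthesis, had 12.98, 12.18 and 13.69 on pine. On aspen it had 10.73, 12.05 and 11.46, so that aspen 2 came close to the lowest pine library, and on maltose 6.72, 7.25 and 8.26. The gene 1471626, annotated as a zinc-binding oxidoreductase, had 12.59, 11.83 and 12.65 on pine, 10.90, 10.70 and 10.86 on maltose, and 7.91, 7.82 and 8.54 on Avicel. Aspen was thus next for both monooxygenases and maltose for the zinc-binding oxidoreductase. Genes that share these annotations in the study's lists did not meet the rule, with margins of -5.06 for 1411633 (kynurenine 3-monooxygenase type), 0.85 for 1433057 and -5.95 for 1433039 (flavin monooxygenase) and -0.15 for 1392196 (zinc-binding oxidoreductase).

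The gene 1433098 carried both a carbohydrate esterase family CE4 module, a family of deacetylases that act on acetylated xylan or chitin, and an SCP-domain annotation, and was the only one of the 15 listed genes with a carbohydrate-active enzyme family. Its level was 13.48, 14.70 and 14.27 on pine, 12.48, 12.49 and 12.53 on wheat straw, and 8.94, 8.70 and 9.58 on Avicel. The gene 1360215, annotated as a zinc-finger protein, had 11.78, 12.61 and 13.15 on pine and 10.62, 11.06 and 11.05 on aspen. The genes 1423291, 1437778 and 1431436 had annotations whose role here is not certain, and had margins of 2.55, 2.20 and 2.07. The first of these was 3.21 without pine 1 and 1.92 without pine 3. Of the 48 genes, 15 were in the study's own list for pine, or 31.2% of the genes and 6.70% of that list. The list was drawn from these same libraries and is no independent evidence. It also used another rule: clusters of genes with a mean over 12 log2 on pine but not on maltose or Avicel, and a significant rise over maltose. Of the 48 genes, 36 had a level over 12 on pine, and 12 had one over 12 on maltose or Avicel. The 2 shares therefore do not measure agreement.

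Per transcript length, the set was dominated by 2 genes. RPKM (reads per kilobase of mappable gene length and of library total) of 1471512 was 8388, 11865 and 4180 on pine, and that of 1471500 was 7938, 11364 and 4433. On maltose, the next highest source, they had 2078 to 3191 and 1944 to 3674. Together they took 1.02 to 2.75% of the counts of a pine library and at most 0.812% elsewhere. Both had no annotation in the study's lists, and they lay 16 gene models apart on the same scaffold. The log2 ratio of 1471500 to 1471512 in normalized counts was -0.06, -0.04 and 0.11 on pine, -0.93 or lower in all 3 libraries on xylan-galactomannan, and 0.78, 0.41 and 0.29 on Avicel. It was 0.08, 0.10 and 0.20 on wheat straw, 0.23, 0.08 and -0.07 on maltose, and -0.37, -0.09 and -0.14 on aspen. The pair was thus nearly equal on pine, but also close to equal on wheat straw and maltose. The gene 1471512 was the higher on xylan-galactomannan and aspen and 1471500 on Avicel and wheat straw, each in all 3 libraries. The 2 genes differed most on xylan-galactomannan. Whether reads of one were counted for the other was not tested.

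**Figure D4:**
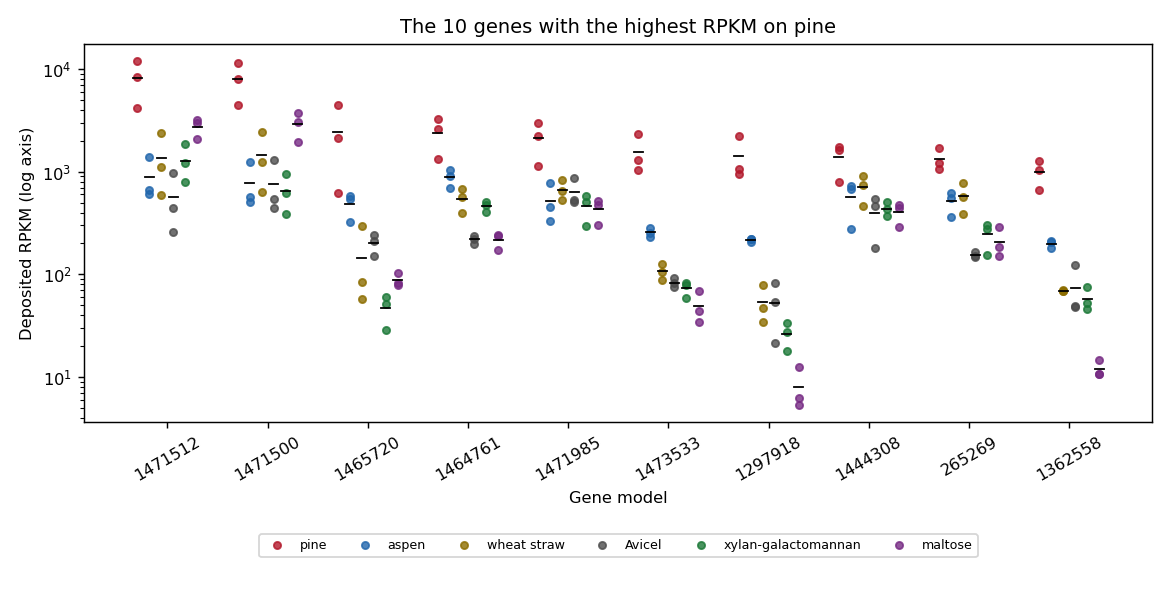
Deposited RPKM (log axis) of the 10 genes with the highest mean RPKM on pine (horizontal axis, by gene model) in each of the 18 libraries, coloured by carbon source. The genes 1471512 and 1471500 reach 11865 and 11364 in pine 2; only 21 of the 1148 bases of 265269 are mappable, so its RPKM cannot be read.

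The plot of the highest RPKM values shows that the other genes were lower in every pine library, with means several times lower. In pine 3 the gap was smaller, with 3270 for 1464761 against 4180 for 1471512. Mean RPKM on pine was 2402 ± 1941 (SD, n = 3) for 1465720, 2398 ± 987 for 1464761, 2106 ± 922 for 1471985, 1542 ± 681 for 1473533, 1409 ± 710 for 1297918, 1376 ± 515 for 1444308 and 996 ± 309 for 1362558. The SD of 1465720 came from libraries at 4471, 2112 and 622, and pine 3 was the low one, so that its margin was 1.62 without pine 1 and 2.98 without pine 3. In 1464761 pine 1 was the low library, with 1326 against 2597 and 3270. The pine libraries therefore did not rank alike from gene to gene. Of the 48 genes, 22 were lowest in pine 1, 15 in pine 2 and 11 in pine 3, and 24 were highest in pine 3. These are 45.8, 31.2 and 22.9% lowest in pine 1 to 3 and 50% highest in pine 3, against 35.4, 28, 36.6 and 33.0% of the 9379 genes with a level of at least 6 on pine. The 3 pine libraries lay within 1 log2 for 14 genes and more than 2 log2 apart for 6.

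Some of the 48 genes lay next to or near each other in the reference gene list of this genome. The genes 1463192 and 1473533 were neighbours with 456 bases between them, and both were next highest on aspen. Their outer neighbours, 1463191 and 1430106, had margins of -0.08 and 0.13. The genes 1362558 and 1297918 lay 3 places and 6080 bases apart, and the 2 gene models between them did not meet the rule. Both had levels above 15 on pine, 13.40 to 13.62 on aspen, and under 10 on maltose. The genes 1447767 and 1471500 lay 4 places and 6940 bases apart, and both were next highest on maltose. The gene models between them had levels of 3.17 to 4.86 on pine and did not meet the rule. The genes 1467149 and 258510 overlapped by 112 bases, so reads of one can be counted for the other unless strand was used, which is not given in the sources used here. The same holds for 1439747, 1439160, 1445359, 1433098 and 265269, which overlap a gene outside the set by 5 to 296 bases. Among the 69 genes that flank the 48 and have a level of at least 6 on pine, 27 (39.1%) had their highest level on pine, against 2160 of 9329 such genes (23.2%), given as a description.

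The carbon sources other than pine were compared with each other in a fit to all 12690 gene models, of which 11168 passed the filter on low counts, all 48 genes among them, with and without the pine libraries. Calls were made by edgeR's quasi-likelihood test with Benjamini-Hochberg adjustment, where the adjusted p had to be below 0.05 and the change larger than 1 log2. No pine library is on either side of these comparisons. The fit did hold the pine libraries, so they entered the scaling and the estimate of spread behind each SE and adjusted p. The median SD of the 48 genes on pine was 0.66, against 0.32 over genes with a level of at least 6 on pine. The rule also required low levels on each other source relative to pine, and the 4 comparisons with maltose share the maltose libraries. Each is therefore given by its own counts beside the share of all tested genes called.

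On aspen, 23 of the 48 genes were higher than on maltose (47.9%, against 19.7% of all genes tested) and 3 were lower (6.25%, against 14.4%). The median log2 fold change was 1.02, and -0.00 over all genes. The genes with the largest rise were 1297918 (4.89 ± 0.50 SE, adjusted p = 2.27e-07 by edgeR, n = 3 libraries in each group) and 1362447 (4.31 ± 0.50, adjusted p = 9.67e-07). The monooxygenase 1463192 rose by 3.97 and 1439160 by 2.42, the esterase 1433098 by 1.74 and the cytochrome P450 1469032 by 1.78. The 3 that fell were 1471500 by 1.84 ± 0.55 (adjusted p = 0.00886), the ABC transporter 1436847 by 1.74 ± 0.34 (adjusted p = 0.000344) and 1471512 by 1.54 ± 0.55 (adjusted p = 0.025). The monooxygenases and the cytochrome P450 thus rose on aspen, while the most abundant pair fell.

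On wheat straw, 18 genes were higher than on maltose (37.5%, against 17.7% of all genes) and 2 were lower (4.17%, against 12.4%), with a median of 0.58 against 0.05. The largest rises were 1362447 (5.04 ± 0.51, adjusted p = 2.08e-07 by edgeR) and 1445412 (2.83 ± 0.39, adjusted p = 7.62e-06). The falls were the major facilitator transporter 1436606 (-2.61 ± 0.47, adjusted p = 0.000173) and 1439747 (-2.34 ± 0.61, adjusted p = 0.00388). The count of lower genes was 4 without maltose 3 and 4 without wheat straw 1, and the value of 1439747 was -3.74 without wheat straw 1. Of the genes higher on aspen, 17 were also higher on wheat straw. The share of all tested genes higher on both is not given here.

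On Avicel, 8 genes were higher than on maltose (16.7%, against 14.6% of all genes) and 12 were lower (25%, against 14.6%), with a median of -0.35 against 0.10. The genes that fell most were 1436847 (-4.32 ± 0.38, adjusted p = 6.04e-08 by edgeR) and 1371445 (-4.05 ± 0.43, adjusted p = 4.72e-07). The zinc-binding oxidoreductase 1471626 fell by 2.64, the major facilitator transporter 1436606 by 2.15, the cation channel 1473195 by 2.08 and the monooxygenase 1439160 by 1.12. The largest rises were 1377613 (3.33 ± 0.27, adjusted p = 1.93e-08) and 1297918 (2.59 ± 0.46, adjusted p = 0.000134). Thus 4 of the annotated enzymes and transporters that were high on pine were lower on cellulose than on maltose, as was the channel. The cytochrome P450 1469032 (0.64), the flavin monooxygenase 1463192 (0.68), the acyltransferase 1363377 (-0.59) and the esterase 1433098 (-0.75) were not called.

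On xylan-galactomannan, 13 genes were higher than on maltose (27.1%, against 19.4% of all genes) and 7 were lower (14.6%, against 14.5%), with a median of 0.07 against 0.01. Without xylan-galactomannan 3, the library with the conflicting labels, 13 were higher and 11 were lower. The shares of all genes in that fit are not given here. The largest rises were 1377613 (3.23 ± 0.27, adjusted p = 1.64e-08 by edgeR) and 1240686 (3.15 ± 0.51, adjusted p = 4.47e-05). The transporters 1436847 (-4.10 ± 0.38, adjusted p = 6.11e-08) and 1436606 (-3.28 ± 0.49, adjusted p = 2.09e-05) fell most. The acyltransferase 1363377 fell by 1.61 and the zinc-binding oxidoreductase 1471626 by 1.56. Without xylan-galactomannan 3 these 6 genes were still called, with values of 3.36 for 1377613, 2.89 for 1240686, -4.34 for 1436847, -3.32 for 1436606, -1.81 for 1363377 and -1.46 for 1471626. Both transporters therefore fell on both isolated polysaccharides.

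**Figure D5:**
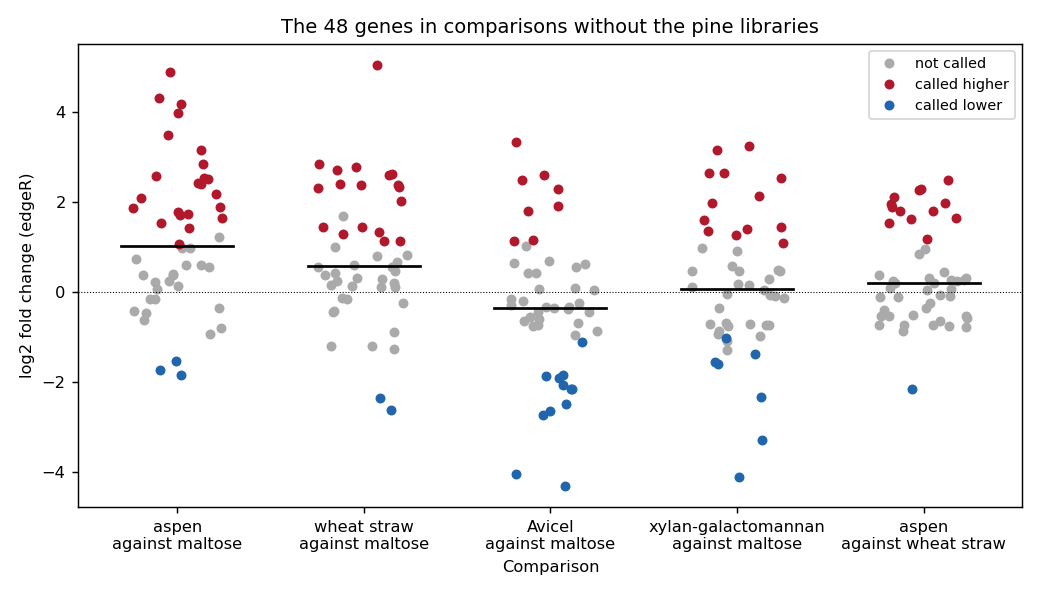
log2 fold change (edgeR, vertical axis) of each of the 48 genes in the 5 comparisons between sources other than pine (horizontal axis). Genes called higher or lower are marked, and the fit held the pine libraries. Values range on Avicel down to -4.32 for 1436847 and on wheat straw up to 5.04 for 1362447.

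The plot of the comparisons between sources other than pine shows the shift between them. The direct comparison of hardwood and grass called 13 of the 48 genes higher on aspen than on wheat straw (27.1%, against 6.43% of all genes tested) and 1 lower (2.08%, against 4.26%). The genes with the largest rise were 1473195 (2.49 ± 0.62, adjusted p = 0.00959 by edgeR) and 1297918 (2.28 ± 0.45, adjusted p = 0.0019), and 1473195 was no longer called without aspen 1 or without wheat straw 3. The major facilitator transporter 1436606 was higher by 2.25, the monooxygenases 1439160 and 1463192 by 2.12 and 1.65, and the cytochrome P450 1469032 by 1.63. The ABC transporter 1436847 was the one gene lower on aspen (-2.15 ± 0.35, adjusted p = 0.000325). The 2 transporters thus differed in opposite directions between the same libraries.

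Over the 4 comparisons with maltose, 7 genes were higher on every other source (1240686, 1297918, 1362447, 1362558, 1367344, 1377613 and 1464041), and 14 were lower on at least 1. No gene was lower on all 4. The genes 1438328 and 1439160 were higher on one source and lower on another. In 11 genes no call was made in any of the 5 comparisons, among them 1471985, 1444308 and 1464785. The shares of all tested genes with these joint patterns are not given here, so nothing is read from the counts. For 1471985 the 15 libraries outside pine lay between 14.11 and 15.72 and those on pine at 17.84, 17.58 and 16.57.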

How the data were processed

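Cultures of Pycco 310 were sequenced as 18 libraries, 3 per carbon source, per the labels. The deposited raw counts per gene model were made by the authors with TopHat2 and HTSeq. The authors also deposited RPKM, which equal counts divided by mappable length and library total wherever that length was above 0 (11862 gene models). No column was left without a sample (0). The genome build is not given in the sources used here.

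Levels used median-of-ratios size factors from the 10728 gene models with no zero, with 1 added before log2. The 48 genes, lists and comparisons were chosen with earlier results of these data known. Tests used edgeR 4.0.16 and limma 3.58.1 in R 4.3.3 (TMM, filterByExpr, glmQLFit and glmQLFTest, 1 fit of 18 libraries in 6 groups, Benjamini-Hochberg adjustment). The standard error is the absolute log2 fold change over the root of F. On simulated data, 200 of 11168 genes were changed by 2 log2, and 96.5 to 98.5% were recovered, with 4 to 12 false calls per comparison. The changed genes were drawn above a minimum expected count, and only the first group of a comparison was changed. Far more genes were called in the data, so these values do not give the recovery or false calls there. DESeq2 1.42.0, other scalings, filters and thresholds, leaving out each library, and a block on the replicate number were alternatives. Library totals as the scaling, and leaving out xylan-galactomannan, were chosen after seeing the data. Python 3.11.15 with numpy 2.4.6, pandas 2.3.3, scipy 1.17.1 and matplotlib 3.10.9 was used for the rest.

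Replicates differed by more than sampling noise (chi-square per degree of freedom 23.5 to 364). Depth was 26370228 to 42190522 counts. The labels do not tie equal replicate numbers to a shared culture.

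Named genes were the 10 largest margins, the 10 highest mean RPKM on pine, 3 on each side of the limit, up to 15 annotated genes, and per tested comparison the 2 largest rises and falls among those called. Other genes named, such as those set beside them, were chosen after their values were seen. Identifiers were matched to a RefSeq gene list (12680 of 12690, all 48 genes), used for gene order only. Protein signature families were planned but not run, since protein sequences were not used here. No sequence or coordinate is given.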

Additional observations from a re-analysis of the deposited data

How the results depend on the processing

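The number of genes meeting the rule was 48. It was 19 with a margin of at least 2, 209 with a margin of at least 1, 18 with library totals, and 38 to 103 when 1 library was left out. With Bonferroni adjustment in edgeR, higher and lower counts were 10 and 0 for aspen against maltose, 7 and 0 for wheat straw, 2 and 3 for Avicel, 2 and 4 for xylan-galactomannan, and 2 and 0 for aspen against wheat straw. The last comparison had 3 lower genes with no minimum fold change and 4 with library totals. Leaving out 1 library gave 22 to 24 higher and 2 to 3 lower genes for aspen against maltose, 17 to 20 and 2 to 4 for wheat straw, 7 to 8 and 11 to 14 for Avicel, 12 to 14 and 6 to 11 for xylan-galactomannan, and 9 to 13 and 1 for aspen against wheat straw. The shares of all tested genes called under these settings, under DESeq2 and with a replicate block are not given here. These counts only describe how the calls on the 48 genes moved. The cause was not tested. The fold changes followed singly were 19, the largest rises and falls among the genes called. Counted once per setting, they kept their call in 483 cases and lost it in 11. Of these 11, 9 were under Bonferroni adjustment, and no result reversed. Because they were picked as the largest called changes, this says little about the other calls. DESeq2 gave 23 higher and 3 lower genes for aspen against maltose, as in the report.

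Libraries with the same replicate number had deviations from the group means that correlated at -0.136 to 0.281. All 3 correlations were over 0.1 in 0 of the 15 pairs of groups, so the numbers were not treated as pairs. This rule could miss an effect shared by only some of the numbers. The correlation was 0.281 for number 1 of pine and aspen. For wheat straw and xylan-galactomannan it was 0.251 for number 2 and 0.230 for number 3. With a replicate block, the higher genes numbered 23 for aspen against maltose, 19 for wheat straw, 8 for Avicel, 13 for xylan-galactomannan and 12 for aspen against wheat straw, and the lower genes 3, 2, 12, 7 and 1. With 3 libraries per group, margins are uncertain for genes with pine libraries more than 2 log2 apart. They are also uncertain where the libraries of the next highest source lie far apart. Examples are 1445359 (2.11, and 1.27 without aspen 1) and 1365831 (1.89, and 1.09 without wheat straw 2).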

Other observations

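The libraries of a carbon source did not differ in the same way for all of the 48 genes. Among the 22 genes whose lowest pine library was pine 1, the lowest aspen library was aspen 1 for 18 (81.8%) and the lowest Avicel library was Avicel 3 for 12 (54.5%). Among the 14 genes whose highest pine library was pine 1, these numbers were 5 (35.7%) and 0. The lowest maltose library was maltose 3 for 8 (36.4%) and 4 (28.6%) of these genes. Over the other genes with a level of at least 6 on pine, the shares for aspen 1 were 66.8% (of 3295 genes with pine 1 lowest) and 26.4% (of 3399 with pine 1 highest), for Avicel 3 they were 41.5% and 46.7%, and for maltose 3 they were 35.7% and 54.1%. In 7 of the 48 genes Avicel 3 lay more than 1 log2 below both other Avicel libraries (1240686, 1360215, 1367344, 1431436, 1444308, 1446572 and 1447767), and all 7 had pine 1 as their lowest pine library. The gap was 3.02 log2 for 1447767 and 2.77 for 1240686. These counts were made after the values were seen and were not tested.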
